A study of Mus musculus with 3 samples.

Results

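Pericytes and vascular smooth muscle cells, the mural cells that wrap blood vessels, were picked out of 3 single-cell RNA libraries of mouse dorsal skin. Barcodes were kept where 500 or more genes were detected and no more than 15% of UMIs (unique molecular identifiers, each standing for 1 captured RNA molecule) were mitochondrial, and one was taken as a mural cell when Rgs5, Kcnj8, Abcc9, Notch3 and Myh11 together gave at least 5 UMIs and at least 2 of these genes were detected. Pdgfra, Pecam1 and Ptprc, which mark fibroblasts, endothelium and immune cells, had to be at 0, and Krt5 and Krt14, which mark keratinocytes, below 10 UMIs together. This gave 442 cells of 45846 barcodes past the filter: 45 in the library Cont, 188 in CIA and 209 in CIA+VFX. All mice were 9-week-old female C57BL/6. Cont was the vehicle control, CIA the chemotherapy-induced alopecia model, and CIA+VFX the same model given venlafaxine, an inhibitor of serotonin and noradrenaline reuptake. Each library pooled wax-depilated skin of mice, whose number is not given in the sources used here, and each group had 1 library, so no difference between groups could be set against a spread between animals and none was tested.

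Mural cells sit on the outside of the vessel tube and share its basement membrane with the endothelium. Pericytes cover capillaries, depend on signalling through Pdgfrb, and carry the ATP-sensitive potassium channel built from Kcnj8 and Abcc9, while smooth muscle cells of arterioles and larger vessels contract through smooth muscle myosin (Myh11) and actin (Acta2). In skin their tone sets blood flow for the hair follicle and for heat loss, and noradrenaline from sympathetic nerves is one of its main controls. The arrector pili muscle of the follicle also makes Myh11, and the rule holds no gene that sets its cells apart from vascular muscle.

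Some of the cells went partly against the label. In 6 of 45 mural cells of Cont, 5 of 188 of CIA and 6 of 209 of CIA+VFX, keratin genes summed to over 20 UMIs (59 to 967, 26 to 573 and 31 to 643). Of these, 5, 3 and 2 had no UMI of Rgs5, Kcnj8 or Abcc9. They were deep, with median UMIs of 31975, 17201 and 17867, so that they held 34.5% of all mural UMIs in Cont against 10% in CIA and 9.75% in CIA+VFX. Unless said otherwise, values below are from the other 425 cells (39, 183 and 203), called keratin-poor, with the value over all 442 cells beside it. The limit of 20 UMIs was chosen after the data had been seen.

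The keratin-poor cells had a median of 7780 UMIs in Cont, 4426 in CIA and 5225 in CIA+VFX. Cont cells were therefore deeper as well as fewer. Mitochondrial UMIs had medians of 3.03%, 2.7% and 3.06% over all mural cells. Pairs of libraries shared 75 to 110 barcodes, none of them a mural cell. A doublet caller marked 5.81%, 7.07% and 7.59% of each library, among them 3, 6 and 5 mural cells, which were kept. Levels are given as CPM, the UMIs of a gene summed over the cells of a library and scaled to 1000000 UMIs in all, always in the order Cont, CIA, CIA+VFX, and a ratio carries a 95% interval that covers counting error only.

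Mural cells made up 0.356% of barcodes in Cont (exact binomial interval 0.26 to 0.476), 1.13% in CIA (0.979 to 1.31) and 1.26% in CIA+VFX (1.09 to 1.44). The share in CIA was 3.19 times that in Cont (2.29 to 4.51), and the share in CIA+VFX was 1.11 times that in CIA (0.905 to 1.36). Keratin-poor cells alone gave 3.58 (2.52 to 5.19) and 1.11. Among barcodes with no Ptprc UMI and with Krt5 and Krt14 below 10 UMIs together, CIA stood 2.63-fold above Cont. Other keratins were not limited there, so keratinocytes low in these 2 genes could remain. Shares of a digested tissue depend on which cells the digestion released, and this was not tested.

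Vascular endothelial cells, defined by their own markers, were also more frequent in both model libraries, with 146, 746 and 679 cells, or 1.16%, 4.5% and 4.08% of barcodes. Set against the endothelium as defined here the mural share was level, since keratin-poor mural cells were 21.1%, 19.7% and 23% of the sum of both. Barcodes kept out of the mural cells by a Pecam1 UMI alone (75, 183 and 317) were in neither class, and a share that counts them was not computed. On this base the ratio of CIA to Cont was 0.934 (0.658 to 1.36). Over all mural cells the shares were 23.6%, 20.1% and 23.5%, and the ratio 0.854 (0.614 to 1.21). Set against fibroblasts the order was different. All mural cells were 3.57%, 9.07% and 13.6% of the sum of mural cells and fibroblasts, and the ratio of these shares between CIA+VFX and CIA was 1.5 (1.23 to 1.84). Fibroblasts themselves were 9.63%, 11.4% and 7.98% of barcodes.

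**Figure D1:**
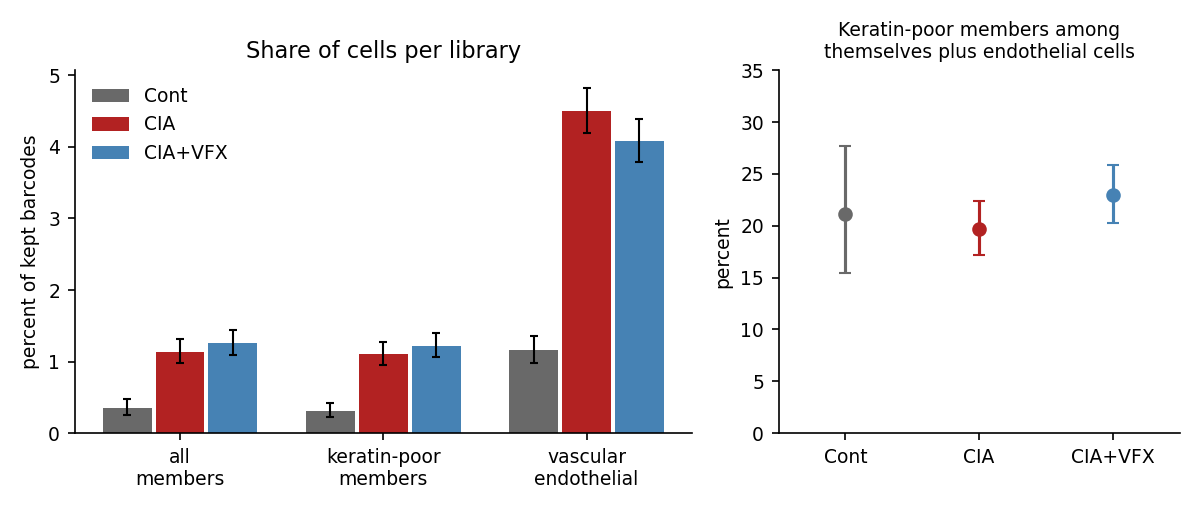
Left, percent of barcodes past the filter that were mural cells, keratin-poor mural cells or vascular endothelial cells in each library, with exact 95% binomial intervals. Right, keratin-poor mural cells as percent of themselves plus endothelial cells; the 3 libraries lie between 19.7% and 23%, with overlapping intervals.

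The exclusion genes decided more cells than the marker limit did. Barcodes that met every other condition but had a Pecam1 UMI numbered 75, 183 and 317, more than the accepted cells in Cont and in CIA+VFX. Pdgfra alone kept out 4, 14 and 13, and Krt5 and Krt14 alone 4, 5 and 7. At the marker limit, 5, 14 and 20 accepted cells had 5 or 6 UMIs of the 5 genes, while 9, 21 and 32 barcodes just outside had 3 or 4. Most accepted cells were far from that limit, with median sums of 53, 36 and 36 UMIs in the keratin-poor cells.

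Mural and muscle markers that the rule had not used were also detected. They were compared with immune cells only and do not set vascular muscle apart from arrector muscle. The cell highest in Myh11 had 429, 317 and 432 UMIs of it, with 150, 38 and 61 of the muscle gene Des. These cells had 0, 1 and 0 UMIs of Rgs5 and 1, 0 and 1 of Notch3. Whether they were vascular or arrector muscle was not tested. Acta2 was detected in 79.5%, 69.4% and 74.4% of keratin-poor cells, Tagln in 82.1%, 56.8% and 61.1%, and Pdgfrb, the receptor that keeps pericytes on the vessel, in 69.2%, 56.3% and 62.1%. In immune cells (median UMIs 5718.5, 5102.5 and 5212) the same genes had a UMI in 1.91%, 4.39% and 4.36%, in 0.853%, 3.73% and 3.24% and in 0.736%, 0.747% and 1.01%. Rgs5, which the rule used, had a UMI in 76.9%, 87.4% and 92.1% of keratin-poor cells, given as a description. Detection depends on depth, which was highest in Cont, so these shares are not compared between libraries. The genes with the highest level in mural cells relative to all other barcodes in each library were Pln, the brake on the calcium pump of muscle, at 152, 151 and 129 CPM and at least 424 times the level elsewhere, and Rergl, at least 273 times. This enrichment is a description, since the cells were picked by genes of the same programme.

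Markers of other cell types were low. The 10 endothelial markers summed to 152, 542 and 507 CPM, against 10646, 10190 and 9289 in endothelial cells, with Cdh5, Cldn5 and Kdr at 0 in Cont but not in CIA or CIA+VFX. Pecam1 and Ptprc are at 0 by the rule. Fibroblast markers summed to 126, 159 and 301 CPM (8451, 10253 and 8667 in fibroblasts), where Pdgfra is at 0 by the rule. Immune markers came to 117, 188 and 95.4 CPM and the 8 markers of dermal papilla and sheath to 26.3, 36.6 and 37.8. The sum of endothelial markers was thus higher in mural cells of both model libraries than in those of Cont. Flt1, taken up below, is among these markers and has been described in pericytes. How much of the sum was endothelial RNA, and the part of such RNA in the results below, was not tested.

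The ends of the mural range were told apart by the channel genes and the myosin. Cells with at least 2 UMIs of Kcnj8 and Abcc9 and at most 1 of Myh11 are called the pericyte side, and cells with at least 3 of Myh11 and at most 1 of Kcnj8 and Abcc9 the contractile side. They are ranges of marker counts, not cell types. Keratin-poor cells on the pericyte side numbered 7, 35 and 35 (17.9%, 19.1% and 17.2%), and those on the contractile side 25, 77 and 91 (64.1%, 42.1% and 44.8%). When the cells were thinned to 2000 UMIs, which also left out 2, 31 and 37 shallower cells, the contractile share was 56.8%, 46.1% and 48.2%. The gap between Cont and the model libraries was then smaller, and the parts of the thinning and of the cells left out cannot be told apart. A further 4, 33 and 31 cells met both limits. Because only 7 Cont cells lie on the pericyte side, with 50352 UMIs in all, each value from that side rests on few cells. The pericyte side held 137847 and 149590 UMIs in CIA and CIA+VFX, and the contractile side 250695, 513156 and 670181. Ratios over all keratin-poor cells therefore mix the makeup of a library with the level within its cells, and the part of each was not tested.

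**Figure D2:**
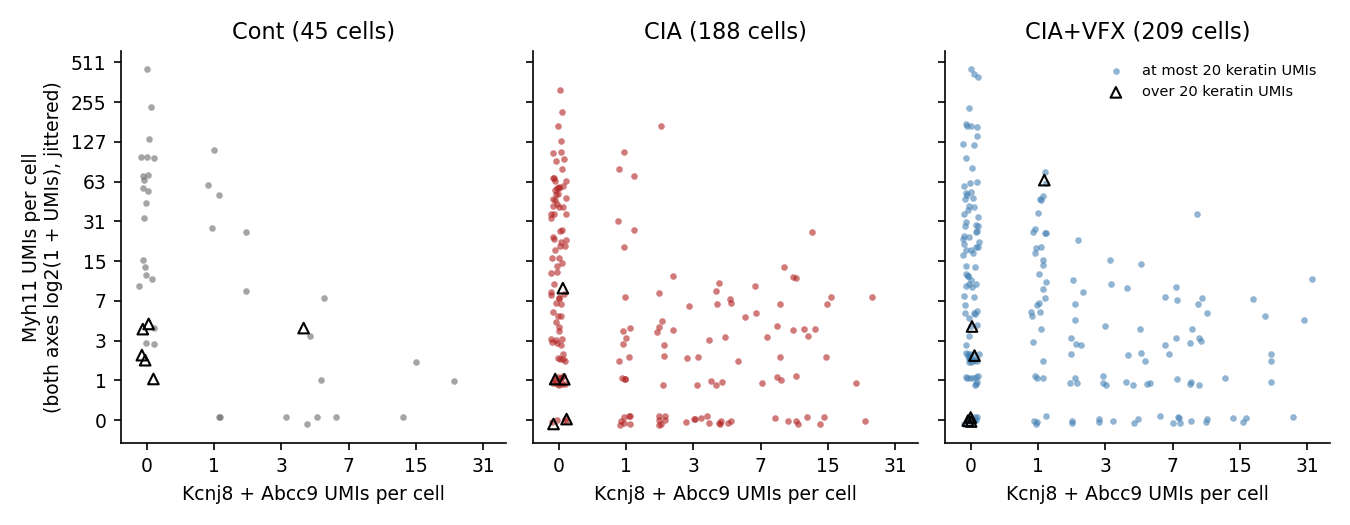
Each point is 1 mural cell, placed by its Kcnj8 plus Abcc9 UMIs (x) and Myh11 UMIs (y), both on a log2(1 + UMIs) scale with small random jitter; open triangles are the keratin-rich cells. The cells highest in Myh11 have few or no channel UMIs, and most keratin-rich cells sit near the origin. Still, 4, 33 and 31 keratin-poor cells of Cont, CIA and CIA+VFX had at least 2 channel UMIs and at least 3 of Myh11.

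Over all 442 cells, 5108 genes had at least 50 UMIs in Cont and CIA together, the limit for calling a gene measured. Of these, 335 (6.56%) were at least 2-fold higher in CIA and 229 (4.48%) at least 2-fold lower. For gene lists a limit of 1.5-fold was used. At that limit 16.0% of measured genes were higher and 13.1% lower over all cells, and 16.7% were higher and 10.4% lower among the 4346 genes measured in keratin-poor cells, with a median log2 ratio of 0.04. The list counts that follow are to be read against these shares. The keratin-rich cells moved these ratios. With their 34.5% of the Cont UMIs included, the CPM of mural genes in Cont was lower and the CIA to Cont ratio higher, at 0.923 against 0.676 for Myh11 and 1.26 against 0.914 for Acta2.

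**Figure D3:**
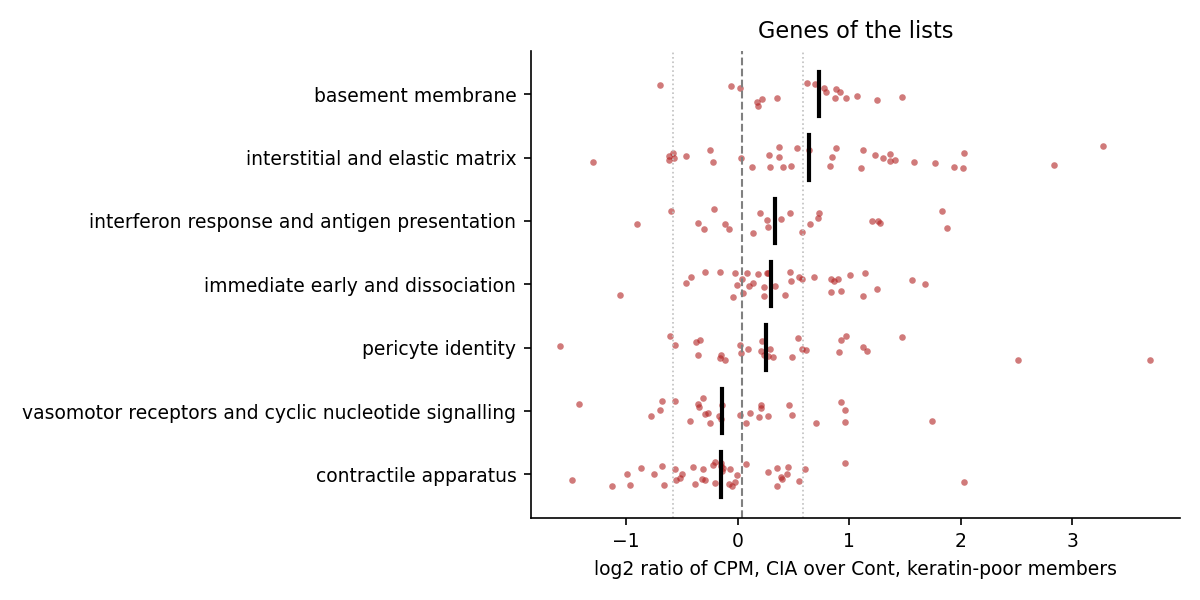
Log2 ratio of CPM in CIA over Cont for each measured gene of 7 lists in keratin-poor cells (points), with each list's median (black bars), the median of all measured genes (dashed line) and the 1.5-fold limits (dotted lines). The medians run from 0.73 for basement membrane to -0.15 for the contractile apparatus.

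Of 18 basement membrane genes measured in keratin-poor cells, 11 were higher in the mural cells of CIA than in those of Cont, 1 was lower and 6 lay within the 1.5-fold limits, with a median log2 ratio of 0.73. Over all cells the counts were 12 and 0 of 19, with a median of 1.09, and with every keratin-poor cell given equal weight they were 6 and 0 of 18, with a median of 0.39, beside the 19.1% of genes higher and 12.1% lower on that scale. Col4a1 and Col4a2, the chains of the type IV collagen network, read 1036, 1764 and 1658 CPM and 527, 972 and 1041 CPM. Both were higher in the model libraries, which lay close to each other, in sums over cells of both sides, whose shares differed between libraries. The CIA to Cont ratios were 1.7 for Col4a1 (1.52 to 1.91) and 1.85 for Col4a2 (1.57 to 2.18), or 2.32 and 2.35 over all cells. In endothelial cells, the other maker of this membrane, Col4a1 read 1850, 1759 and 1595 CPM, with no such step.

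Among the laminins and their partners, Lama2, Lama4, Nid1 and Sparc also had Cont lowest. Lama2 and Lama4, alpha chains of the laminins of muscle and of vessels, read 79.0, 219 and 245 CPM and 99.5, 237 and 228 CPM, giving CIA to Cont ratios of 2.77 (1.85 to 4.3) and 2.38 (1.66 to 3.52). Nid1, which links laminin to collagen IV, stood at 73.1, 154 and 175 CPM. Sparc, a collagen-binding glycoprotein, read 2203, 4172 and 4557 CPM, a ratio of 1.89 (1.75 to 2.05). The 1 lower gene was Hspg2, which encodes perlecan, at 129, 79.3 and 104 CPM, with a ratio of 0.616 (0.421 to 0.913) that came to 0.882 over all cells. Against Cont, CIA+VFX had 9 higher and 0 lower of 20 measured genes, where 19.1% of all 4755 genes were higher and 10.4% lower.

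Within the sides the values were unlike, a difference that could not be tested with 1 library per group. On the pericyte side 5 of 6 measured genes were higher in CIA and none lower, with a median log2 ratio of 1.33, where 26.7% of 738 measured genes were higher and 23.3% lower. On the contractile side 3 of 14 were higher and 0 lower, with a median of 0.30, where 14.1% of 2786 genes were higher and 12.1% lower. Col4a1 was 2.3-fold higher on the pericyte side (1.72 to 3.15) and level on the contractile side (1.02, 0.875 to 1.2). Col4a2 gave 3.29 (1.99 to 5.79) and 1.06 (0.858 to 1.31). Sparc was higher on both, by 1.7-fold (1.41 to 2.06) and 1.42-fold (1.27 to 1.59).

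Many interstitial matrix genes were higher in CIA as well. In keratin-poor cells 18 of 35 measured genes were higher in CIA and 3 lower, with a median log2 ratio of 0.64, and over all cells 24 and 2 of 36, with a median of 1.03. Col5a3, a chain of type V collagen, read 52.7, 376 and 311 CPM. Its level was low in 8 Cont cells and spread over 82 cells in CIA. The ratio was 7.15 (4.46 to 12.2), or 8.03 over all cells, and its log2 value of 2.84 came to 1.86 with keratin-poor cells thinned to 2000 UMIs. For comparison fibroblasts read 95.2, 171 and 131 CPM and endothelial cells no more than 6.48.

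Type VI collagen, a beaded network around cells, stood at 90.7, 371 and 431 CPM for Col6a1 and 87.8, 355 and 420 CPM for Col6a2, which gave ratios of 4.09 (2.83 to 6.11) and 4.04 (2.78 to 6.09). Bgn, a small proteoglycan, read 152, 454 and 476 CPM, and Fbn1, the main protein of microfibrils, 79.0, 204 and 187. Bgn was higher on the contractile side alone too, at 1.99-fold (1.42 to 2.84). The fibrillar collagens need more care. Col3a1 was at 339, 875 and 1173 CPM, yet 49.1% of its Cont UMIs came from 1 cell, and for Col1a1 and Col1a2 1 Cont cell held 72.7% and 56.7%. Ccn1, a matrix signal made by stretched cells, had 6 UMIs in 4 Cont cells and read 17.6, 171 and 125 CPM, a ratio of 9.74 (4.38 to 26.9).

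A few genes of enzymes and regulators of the matrix had their highest level in Cont. Adamts1 and Adamts4, which cut proteoglycans, read 2422, 1621 and 1688 CPM and 4303, 2897 and 2650 CPM. Their ratios of 0.669 (0.615 to 0.729) and 0.673 (0.632 to 0.717) fell short of the 1.5-fold limit and became 0.869 and 0.906 over all cells. On the pericyte and the contractile side Adamts4 gave 0.606 and 0.741. Thbs1, an inhibitor of vessel growth and activator of TGF-beta, was lower in each model library, at 1000, 649 and 445 CPM, with ratios of 0.649 for CIA to Cont (0.568 to 0.742; 0.929 over all cells) and 0.686 for CIA+VFX to CIA (0.61 to 0.772). On the contractile side its CIA to Cont ratio was 0.957 (0.82 to 1.12).

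**Figure D4:**
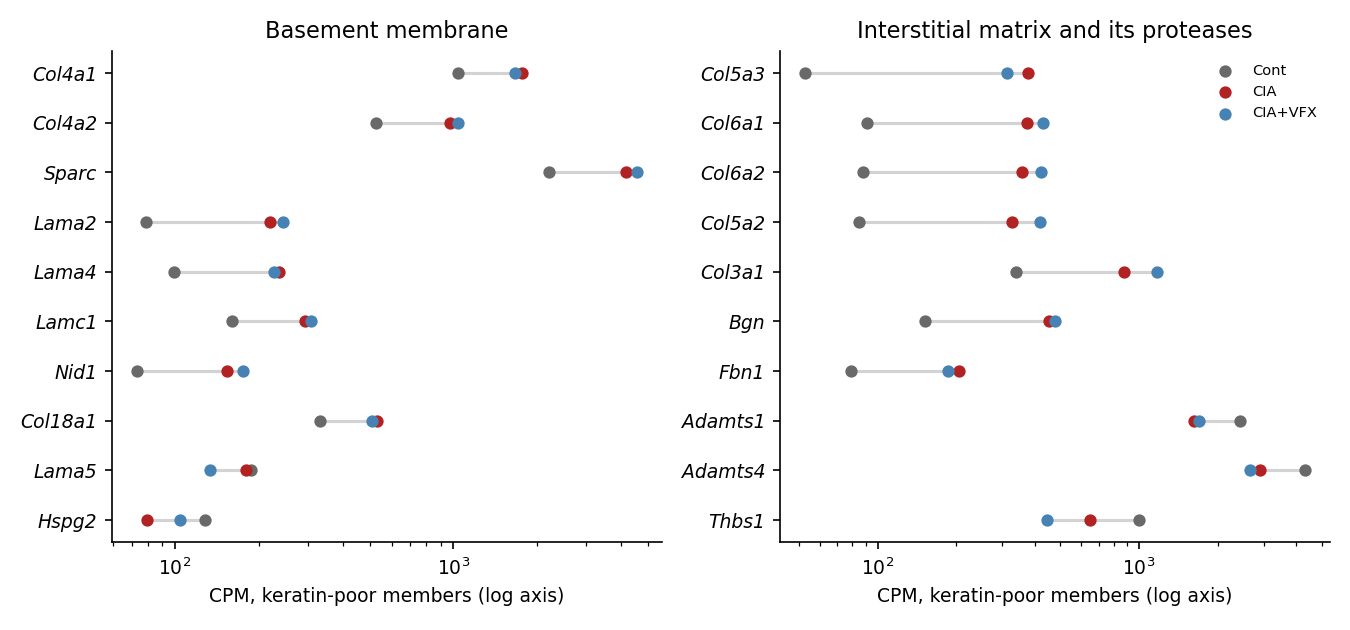
CPM on a log axis of 10 basement membrane genes (left) and 10 genes of the interstitial matrix and its proteases (right) in keratin-poor mural cells, 1 point per library. Most collagens and laminins have Cont at the low end with CIA and CIA+VFX close together, while Hspg2, Adamts1, Adamts4 and Thbs1 have Cont at the high end.

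Pericyte identity genes, rule genes among them, were higher in part. Of 30 measured, 9 were higher in CIA and 2 lower in keratin-poor cells, with a median log2 ratio of 0.25, and over all cells 17 and 1, with a median of 0.66. The rule genes Rgs5, Abcc9, Kcnj8 and Notch3 belong to this list, and the first of these, Abcc9 and Kcnj8 are among the 9. The counts and medians of this list, here and below, include them and are therefore a description, as are their own values. Rgs5, which speeds the shut-off of G protein signals, read 2577, 4909 and 4864 CPM. Abcc9 and Kcnj8, the 2 subunits of the potassium channel, read 225, 422 and 432 CPM and 49.7, 108 and 92.0 CPM. The log2 ratio of CIA to Cont for Abcc9 was 0.91 in keratin-poor cells and -0.18 after thinning, which also left out the shallower cells; the cause of this change was not tested. Notch3, the Notch receptor of mural cells, stood at 676, 605 and 644 CPM.

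Counted per cell the picture was narrower. The median UMIs of Rgs5 were 15, 13 and 11 and the highest 180, 213 and 264. For Abcc9 they were 0, 1 and 1, with 21, 19 and 33 the highest. Every library thus held a few very high cells. For Rgs5 Cont had the highest median but the lowest CPM, and Cont cells were the deepest.

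Among pericyte genes that the rule did not use, Higd1b, a mitochondrial protein much used as a pericyte marker, was low in Cont, at 23.4, 133 and 148 CPM, from 8 UMIs in 6 Cont cells. The ratio of CIA to Cont was 5.69 (2.81 to 13.5), a log2 value of 2.51 that was 1.69 with equal weight per cell. Ndufa4l2 and Cox4i2, alternative parts of the respiratory chain, read 196, 438 and 434 CPM and 152, 420 and 306 CPM, with ratios of 2.24 (1.73 to 2.94) and 2.76 (2.07 to 3.76). Cox4i2 had no UMI in the 7 Cont cells of the pericyte side, where CIA was at least 5.6-fold higher against a floor of 3 counts in Cont, and on the contractile side the ratio was 1.13 (0.798 to 1.63). Mcam, an adhesion molecule of mural and endothelial cells, was at 114, 223 and 234 CPM, a ratio of 1.95 (1.38 to 2.82). Colec11, a secreted collectin, had 2 UMIs in Cont but 75 in CIA, which is a ratio of 13 (3.49 to 110).

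Other pericyte genes did not follow. Pdgfrb read 178, 223 and 284 CPM, and its ratio of 1.25 had an interval from 0.936 to 1.69. Cspg4, the NG2 proteoglycan of pericytes, read 170, 153 and 147 CPM, with a ratio of 0.899 (0.66 to 1.24) and of 1.25 over all cells. Steap4, a metal reductase, was lower in the model, at 439, 145 and 139 CPM, with a ratio of 0.331 (0.262 to 0.42; 0.458 over all cells), although 42% of its Cont UMIs came from 1 cell. Within the sides the list had 6 higher and 3 lower of 17 on the pericyte side and 4 and 0 of 21 on the contractile side, with medians of 0.23 and -0.03. Kcnj8 and Abcc9, which set the sides, belong to this list. Of all measured genes 26.7% were higher and 23.3% lower on the pericyte side, and 14.1% and 12.1% on the contractile side.

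The contractile apparatus showed no common direction. In keratin-poor cells 3 of 41 measured genes were higher in CIA and 8 lower, with a median log2 ratio of -0.15, while over all cells 9 were higher and 2 lower, with a median of 0.22. Within the contractile side 9 of 41 were higher and 3 lower, with a median of 0.11, where 14.1% of 2786 genes were higher and 12.1% lower. The sign of the list's median thus depended on which cells were summed. The contractile share was also larger in Cont, as given above. Myh11, which the rule used and which also sets the contractile side, is counted in this list and is given as a description. It read 5412, 3660 and 4063 CPM, a ratio of 0.676 (0.639 to 0.716), and on the contractile side the ratio was 0.856 (0.808 to 0.908). Acta2 was at 4941, 4518 and 4797 CPM, with a ratio on the contractile side of 1.12 (1.05 to 1.18).

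Tagln, an actin-binding protein of smooth muscle, was higher on the contractile side, with 6211, 9948 and 8141 CPM and a ratio of 1.6 (1.51 to 1.7). Lmcd1, a LIM domain cofactor, had the highest ratio of the list, from 76.1, 310 and 248 CPM, at 4.08 (2.73 to 6.35; 5.6 over all cells) and at 3.39 on the contractile side (2.03 to 6.02). Casq2, the calcium buffer of the muscle store, had the lowest ratio, from 41 UMIs over 17 Cont cells. It read 120, 42.7 and 54.1 CPM, a ratio of 0.356 (0.226 to 0.562; 0.489 over all cells). Synm and Mustn1 were lower too, at 322, 165 and 186 CPM and at 878, 479 and 681 CPM. Mylk, the kinase that switches myosin on, read 3171, 1981 and 2301 CPM, with 38.3% of Cont UMIs in 1 cell, and for Actg2, typical of visceral and arrector muscle, 1 cell held 93.1% of the Cont UMIs. Itga8, an integrin of arrector muscle and its niche, was at 225, 211 and 200 CPM. The list of visceral and arrector type muscle genes had 0 higher and 3 lower of 6 measured in keratin-poor cells, with a median log2 ratio of -0.63. Over all cells it had 1 and 1 of 6, with a median of -0.19.

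Many smooth muscle genes carry a CArG box, the site bound by serum response factor with its cofactor myocardin. The box was searched on both strands in the 250 bases before each gene's start in RefSeq promoter sequence (GRCm38.p6). It was present in 6 of 34 contractile genes found in that table (17.6%), 1 of 22 pericyte identity genes (4.55%), 1 of 19 basement membrane genes (5.26%), 0 of 29 interstitial matrix genes and 1.62% of all 27025 genes. Windows of 50 bases are shown for 4 of the 6 contractile genes, with ratios from near 1 to the highest of the list, 5′ to 3′ on the strand of the gene, with the box in capitals. A match describes the letters of the promoter, not binding.
Myl9, chr2:156775283-156775332, plus strand: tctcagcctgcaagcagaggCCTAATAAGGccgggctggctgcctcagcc
Vcl, chr14:20929151-20929200, plus strand: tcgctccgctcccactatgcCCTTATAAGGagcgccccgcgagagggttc
Myl6, chr10:128493030-128493079, minus strand: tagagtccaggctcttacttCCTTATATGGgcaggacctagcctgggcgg
Lmcd1, chr6:112273523-112273572, plus strand: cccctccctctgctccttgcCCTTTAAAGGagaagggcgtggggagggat

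These 4 genes did not share a ratio. The box lies 161 to 152 bases before the start in Myl9, the regulatory light chain of smooth muscle myosin, 227 to 218 in Vcl, which anchors actin at adhesions, 50 to 41 in Myl6, the essential light chain, and 215 to 206 in Lmcd1. In keratin-poor cells Myl9 read 2495, 2410 and 2254 CPM and Myl6 3853, 3498 and 3440 CPM, with CIA to Cont ratios of 0.966 (0.893 to 1.05) and 0.908 (0.852 to 0.968). Vcl read 386, 491 and 530 CPM, a ratio of 1.27 (1.05 to 1.55). On the contractile side the ratios were 1.21 for Myl9, 1.1 for Myl6, 1.61 for Vcl and, as above, 3.39 for Lmcd1.

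Receptors and channels that set vessel tone differed gene by gene. Of 29 measured vasomotor genes 5 were higher in CIA and 4 lower, with a median log2 ratio of -0.14 (0.33 over all cells). Of 25 channel and calcium genes 4 were higher and 6 lower, with a median of -0.19 (0.19 over all cells). Both counts include rule genes, with Rgs5 among the higher vasomotor genes and Kcnj8 and Abcc9 among the higher channel genes. Avpr1a, the vasopressin receptor of vessels, had the lowest ratio of the receptors. It read 483, 180 and 192 CPM, a ratio of 0.373 (0.3 to 0.464; 0.503 over all cells), and was lower on both sides, by ratios of 0.295 and 0.433. Rgs2, which damps signals of contractile receptors, read 43.9, 147 and 69.6 CPM, a ratio of 3.34 (1.96 to 6.12) that was 1.27 over all cells. Trpv2, a channel opened by stretch and heat, was at 260, 120 and 141 CPM, a ratio of 0.461 (0.347 to 0.614).

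Endothelin receptors were both somewhat lower. Ednrb stood at 1337, 990 and 584 CPM and Ednra at 500, 403 and 399. The ratios of CIA to Cont were 0.74 (0.662 to 0.829) and 0.805 (0.671 to 0.969), with 0.96 and 1.1 over all cells. For Ednrb the level was lower again in CIA+VFX, by a ratio of 0.59 to CIA (0.534 to 0.651) that was 0.552 on the pericyte side and 0.616 on the contractile side.

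Few adrenergic and serotonin genes were measured, 4 in keratin-poor cells, of which 2 were higher and 1 lower. Adra1a, an alpha receptor through which noradrenaline constricts vessels, read 272, 145 and 193 CPM. Its ratio was 0.535 (0.409 to 0.702; 0.716 over all cells), and 43% of the Cont UMIs came from 1 cell. With equal weight per cell its log2 ratio was 0.07 in keratin-poor cells and 0.22 over all cells. Adra2a, another alpha receptor, had 5 UMIs in 2 Cont cells against 105 UMIs in 30 CIA cells, a ratio of 7.3 (3.03 to 23). Htr7, a serotonin receptor that relaxes vessels, had 2 UMIs in Cont but 48 in CIA, which is a ratio of 8.34 (2.19 to 70.9). In CIA+VFX these genes stood at 79.9 CPM for Adra2a and 43.8 for Htr7, against 107 and 48.8 in CIA.

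Several interferon and antigen presentation genes were higher in the model libraries. Of 22 measured genes 8 were higher in CIA and 2 lower, with a median log2 ratio of 0.33 (9 and 1, median 0.28, over all cells). B2m, the light chain of class I molecules, read 468, 1075 and 1139 CPM, and H2-D1, a heavy chain, 249, 596 and 517. Both were higher in the 2 model libraries, with ratios of 2.3 (1.94 to 2.73) and 2.4 (1.91 to 3.05). Ifitm1, an antiviral membrane protein, was at 208, 764 and 899 CPM, a ratio of 3.68 (2.88 to 4.76) whose log2 value of 1.88 was 1.13 after thinning.

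By side, 7 of 7 measured interferon genes were higher on the pericyte side and 2 of 9 on the contractile side, with 0 and 1 lower. The shares over all measured genes were 26.7% and 14.1% higher and 23.3% and 12.1% lower, in the same order. B2m had ratios of 2.95 (2.02 to 4.43) and 0.991 (0.783 to 1.26). H2-D1 had 5.68 (2.91 to 12.7) and 1.3 (0.971 to 1.75), the first from 9 UMIs in Cont. Endothelial cells, whose markers were higher in the model mural cells, read 2663, 2968 and 2596 CPM for B2m and 1507, 1776 and 1344 for H2-D1. The part of endothelial RNA in these ratios was not tested.

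Inflammatory genes had a list median above 0 on the pericyte side and below 0 on the contractile side. Over all keratin-poor cells 7 of 34 measured inflammatory genes were higher in CIA and 5 lower, with a median log2 ratio of -0.10. On the pericyte side 10 of 22 were higher and 4 lower (median 0.33), where 26.7% of all genes were higher and 23.3% lower. On the contractile side 3 of 26 were higher and 8 lower (median -0.25), where 14.1% and 12.1% of all genes were. The difference between the sides could not be tested. Il6 read 497, 2851 and 1825 CPM on the pericyte side and 3243, 1436 and 2384 on the contractile side. The CIA to Cont ratios were 5.74 (3.83 to 8.98) and 0.443 (0.4 to 0.49), and 0.63 over both sides and the cells between (0.852 with keratin-rich cells).

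Cxcl1, which draws neutrophils, behaved alike, at 5263, 9960 and 3536 CPM on the pericyte side and 5225, 3087 and 4678 on the contractile side, with ratios of 1.89 (1.66 to 2.17) and 0.591 (0.549 to 0.636). Nfkb1, a subunit of the transcription factor that drives both, gave 4.58 (3.07 to 7.12) and 0.531 (0.464 to 0.608). The related chemokine Cxcl2 had no UMI on the pericyte side of Cont, where CIA was at least 34.2-fold higher, and a ratio of 0.564 on the contractile side (0.471 to 0.674). The Cont values on the pericyte side came from 7 cells, 1 of which held 44% of the Il6 UMIs, 41.5% of those of Cxcl1 and 46.2% of those of Nfkb1. In CIA+VFX the levels of Il6 and Cxcl1 lay below CIA on the pericyte side and above it on the contractile side, with CIA+VFX to CIA ratios of 0.64 and 0.355 on the first and 1.66 and 1.52 on the second.

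**Figure D5:**
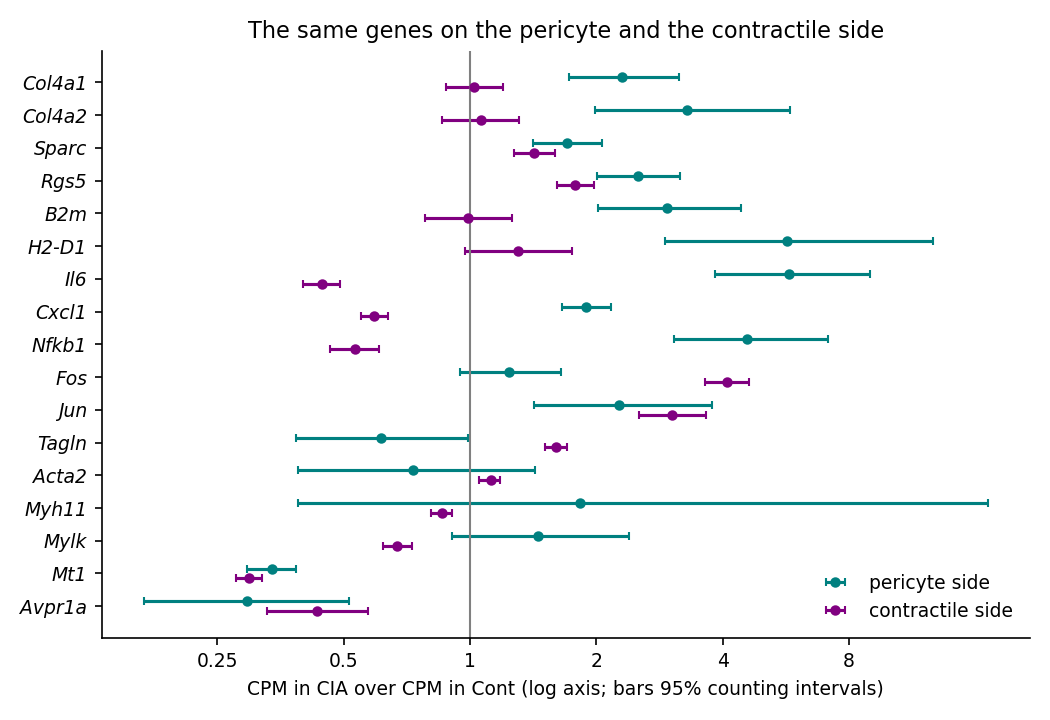
CPM in CIA over CPM in Cont (log axis) of 17 genes, separately for keratin-poor cells of the pericyte side and of the contractile side, with 95% intervals for counting error. Il6, Cxcl1 and Nfkb1 lie above 1 on the pericyte side and below 1 on the contractile side, while Mt1 and Avpr1a lie below 1 on both. Rgs5 and Myh11 were used to pick the cells, and Myh11 also to set the sides, so both are shown as a description.

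Of 36 measured immediate early and heat shock genes, which digestion of tissue also induces, 12 were higher in CIA and 1 lower in summed counts, with a median log2 ratio of 0.30 (11 and 3 of 37, median 0.30, over all cells). With equal weight per keratin-poor cell 6 were higher and 1 lower, with a median of 0.09, where 19.1% of all 4346 genes were higher and 12.1% lower. The excess of higher genes was thus seen in summed counts and not with equal weight. Fos read 1164, 3733 and 2720 CPM and Jun 553, 1315 and 1079. Their ratios were 3.21 (2.89 to 3.56) and 2.38 (2.04 to 2.79), although 41.2% of the Fos UMIs in Cont came from 1 cell. In summed counts 17 of 35 genes were higher and 0 lower on the contractile side, against 5 and 4 of 23 on the pericyte side, with median log2 ratios of 0.58 and -0.11. Over all measured genes 14.1% were higher and 12.1% lower on the contractile side, and 26.7% and 23.3% on the pericyte side. Hspb1, a small chaperone of muscle, read 1053, 2317 and 1520 CPM. In endothelial cells, digested in the same suspension, Fos read 1184, 1157 and 1001 CPM and Jun 893, 840 and 830.

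Of 24 angiogenic and crosstalk factors 3 were higher in CIA and 6 lower, among the lower Fgf1, a growth factor without a secretion signal, at 293, 131 and 146 CPM and a ratio of 0.449 (0.343 to 0.588; 0.6 over all cells). Notch pathway genes, with Notch3 of the rule among them, gave 3 higher and 3 lower of 13, and TGF-beta and BMP genes 5 and 7 of 30. In the latter, Id4, a BMP target, read 43.9, 179 and 205 CPM, a ratio of 4.08 (2.41 to 7.44), and Fst, the activin antagonist follistatin, 105, 16.3 and 41.3 CPM, a ratio of 0.155 (0.0801 to 0.286). Cont UMIs of Fst came from 6 cells, 1 of which held 41.7%.

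Of 9 measured p53 targets 5 were higher and 0 lower in keratin-poor cells, but 3 and 1 of 10 over all cells. Gdf15, a stress hormone and p53 target, read 93.6, 199 and 125 CPM, a ratio of 2.13 (1.46 to 3.2). Cdkn1a, which stops the cell cycle, read 1752, 1297 and 1002 CPM, a ratio of 0.74 (0.671 to 0.817; 0.874 over all cells) that lay within the 1.5-fold limits. On the pericyte side both directions were the opposite, with Cdkn1a higher and Gdf15 lower in CIA. Genes of the cell cycle were barely detected: 5 S phase and 10 G2/M genes were measured, with 0 and 3 higher and 1 and 0 lower. Hypoxia genes gave 6 higher and 3 lower of 22 and senescence genes 1 and 3 of 14.

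Among the genes with the lowest CIA to Cont ratios of all were the metallothioneins Mt1 and Mt2, which bind zinc and copper. Mt1 read 8592, 2715 and 3917 CPM, and Mt2 1369, 354 and 596. The ratios were 0.316 (0.3 to 0.333) and 0.259 (0.224 to 0.298), or 0.412 and 0.328 over all cells. Mt1 was lower on both sides, by ratios of 0.337 and 0.297. Endothelial cells read 3912, 1269 and 1381 CPM for Mt1 and fibroblasts 3930, 2883 and 2124, so the level was also lower in CIA in these cells. In CIA+VFX mural Mt1 and Mt2 were 1.44-fold (1.38 to 1.51) and 1.69-fold (1.48 to 1.92) above CIA.

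Other genes named by size in the same direction were Ank3, an ankyrin, at 410, 53.9 and 45.6 CPM, Agt, the precursor of angiotensin, at 386, 79.3 and 43.8, and Impdh2, an enzyme of guanine nucleotide synthesis, at 591, 207 and 210. For Ank3 and Agt 1 Cont cell held 42.9% and 40.9% of the UMIs. In the higher direction Plac8 had 2 UMIs in Cont against 256 in CIA, a ratio of 44.5 (12.2 to 369) that was 17.5 over all cells, where keratin-rich Cont cells also carried it. S100a4, a calcium-binding protein of motile cells, read 76.1, 545 and 549 CPM, a ratio of 7.17 (4.84 to 11.1; 8.59 over all cells), and was higher on the contractile side, at 3.57 (2.23 to 6.01). Nrep, Spon1 and Tnfsf9 read 23.4, 175 and 203 CPM, 14.6, 115 and 156 CPM and 29.3, 240 and 193 CPM. Adarb2 showed how far the keratin-rich cells could decide a value. It had no UMI in keratin-poor Cont cells, which made CIA at least 12.1-fold higher, and a ratio of 1.08 (0.756 to 1.56) over all cells. Over all cells the lowest ratios belonged to Flg, Cnfn, Crct1, Krtdap and other keratinocyte genes.

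Flt1, the VEGF receptor that marks endothelium and has been described in pericytes, read 61.4, 340 and 277 CPM, a ratio of 5.53 (3.56 to 9.05). It lay mainly on the pericyte side, at 59.6, 1204 and 648 CPM from 3 UMIs in Cont, and at 47.9, 35.1 and 113 on the contractile side. Endothelial cells read 3020, 3123 and 2848 CPM. Of the endothelial marker sum of 542 CPM in mural cells of CIA, 340 CPM were Flt1.

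Fewer genes were past 2-fold between CIA+VFX and CIA than between CIA and Cont. Between CIA+VFX and CIA 6266 genes were measured over all cells, and 81 (1.29%) were at least 2-fold higher and 41 (0.654%) at least 2-fold lower. At 1.5-fold 6.51% were higher and 4.42% lower, and in keratin-poor cells 6.53% and 4.41% of 5805. Both comparisons use the same CIA library. Cont had 45 cells with 521652 UMIs, against 188 and 209 cells with 1092586 and 1289247 UMIs in CIA and CIA+VFX. Ratios to Cont thus rest on fewer UMIs, 34.5% of them in keratin-rich cells. Without those cells 286 genes were higher and 122 lower in CIA than in Cont, and 62 and 34 in CIA+VFX than in CIA. The part of cell numbers in this gap was not tested. Basement membrane genes gave 2 higher and 0 lower of 21 in keratin-poor cells, interstitial matrix 4 and 1 of 39, pericyte identity 2 and 2 of 32, the contractile apparatus 0 and 0 of 41 and interferon genes 0 and 0 of 29.

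Of 30 angiogenic and crosstalk factors 9 were higher and 1 lower, with a median log2 ratio of 0.23, beside 0.03 for all genes. With equal weight per cell 6 were higher and 2 lower, with a median of 0.13, where 12.3% of genes were higher and 7.65% lower. Gja4, the connexin of arterial gap junctions, read 135, 125 and 211 CPM, a ratio to CIA of 1.69 (1.36 to 2.12). Angpt1, the mural ligand that calms endothelium through its receptor Tie2, read 70.2, 69.2 and 120 CPM, a ratio of 1.73 (1.28 to 2.34). When cells with a few UMIs of other cell types' genes were also left out, the log2 ratio of Angpt1 dropped from 0.79 to 0.20. Cdh13, an anchored cadherin, gave 1.8 (1.38 to 2.38) and Cxcl12, a chemokine that guides vessel growth, 1.7 (1.27 to 2.3). In these 4 genes CIA stood level with or below Cont. On the contractile side the ratios were 1.92 for Gja4, 1.93 for Angpt1, 1.64 for Cdh13 and 2.34 for Cxcl12.

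In the matrix list Postn, made where tissue is remodelled, read 149, 182 and 342 CPM, a ratio to CIA of 1.88 (1.57 to 2.25). Col1a2 and Col3a1 gave 1.51 (1.32 to 1.71) and 1.34 (1.23 to 1.46). Fibroblast markers were also higher in mural cells of CIA+VFX, at 301 against 159 CPM, and their part in these values was not tested. Kcnt2, a sodium-gated potassium channel, read 23.4, 52.9 and 120 CPM, and Zfpm2, a cofactor of GATA factors, 52.7, 52.9 and 107. The log2 ratio of Kcnt2 was 1.20 over all cells and 0.06 under the same further exclusions. Of the genes that could be named by size, the highest ratio in keratin-poor cells belonged to the odorant receptor gene Or5m3b, at 135, 80.4 and 231 CPM, where 1 Cont cell held 69.6% of the UMIs. Its ratio was 2.88 (2.23 to 3.75). Over all cells S100a3, Dapl1, Krt35 and Krt16, genes of hair and epidermis, stood above it, with ratios of 20.6, 10.4, 6.86 and 5.25.

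Lower in CIA+VFX than in CIA were 5 of 36 immediate early genes, with none higher and a median log2 ratio of -0.21. With equal weight per keratin-poor cell 1 was lower and 2 were higher, with a median of -0.02, so this direction was not seen on that scale. Klf2, a flow-responsive transcription factor, read 87.8, 259 and 140 CPM, a ratio to CIA of 0.54 (0.441 to 0.66), and Hspb1 gave 0.656 (0.616 to 0.698). Of 29 vasomotor genes 5 were lower and 0 higher, among them Ednrb, Rgs2 at 0.475 (0.357 to 0.628) and Pde10a, a phosphodiesterase, at 164, 95.6 and 27.5 CPM and a ratio of 0.288 (0.186 to 0.434). Ppp2r2b, a regulatory subunit of a phosphatase, had the lowest ratio of the genes named by size, at 576, 233 and 70.5 CPM, but 64.2% of its CIA UMIs came from 1 cell and its log2 ratio turned from -1.72 to 0.19 under the further exclusions. Tnfaip2 and Hilpda, a lipid droplet protein, read 240, 201 and 102 CPM and 143, 199 and 108 CPM.

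The comparison of CIA+VFX with Cont shares the Cont library with that of CIA. Over all cells 401 of 5498 measured genes (7.29%) were at least 2-fold higher and 255 (4.64%) at least 2-fold lower. At 1.5-fold in keratin-poor cells 19.1% of 4755 were higher and 10.4% lower, and the matrix list had 21 higher and 4 lower of 37, with a median log2 ratio of 0.90. Pericyte identity gave 11 and 4 of 32, and the contractile apparatus 2 and 4 of 41. Ndst3, an enzyme of heparan sulfate synthesis, had no UMI in keratin-poor Cont cells and read 72.2 and 106 CPM in CIA and CIA+VFX, at least 12-fold above the floor in CIA+VFX. Prkar2b, a regulatory subunit of protein kinase A, read 17.6, 81.4 and 116 CPM. Tmtc2 was lower in both model libraries, at 544, 330 and 200 CPM.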

How the data were processed

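Dorsal skin cells of 3 libraries were profiled with the Chromium GEM-X 3′ v4 chemistry after collagenase digestion, straining, red cell lysis and a Percoll gradient, per the labels' protocols. The matrices of raw UMI counts that the authors deposited were used as they stand. The submitters' processing notes name Cell Ranger 8.0.1, FastQC 0.11.7 and the build GRCm39. How cells were called, and whether doublets or free RNA had been removed, is not given in the sources used here. Library totals were 143164803, 130557879 and 155210692 UMIs for Cont, CIA and CIA+VFX, and mural cells held 521652, 1092586 and 1289247 of them.

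The mural cells and the 19 gene lists were chosen with earlier results of these data known. Counts were summed over the cells of a library and scaled to CPM. With 1 library per group no test was possible, so ratios of CPM have exact conditional binomial intervals and shares have exact Clopper-Pearson intervals. A gene with no UMI in one library was given a bound from a floor of 3 counts per library. Genes named by size were the 8 highest and 8 lowest ratios of each comparison among genes that reached 100 UMIs and 50 CPM in whichever library was higher, where they also had to be no lower than over all barcodes. The rule left out mitochondrial, ribosomal, haemoglobin, Gm and Rik genes, the 5 rule genes and sex-linked transcripts. From each list the 2 highest and 2 lowest members could be named, and further list members, Flt1 among them, were named after their values had been seen. A gene of the channel list is counted there but not reported here. Doublets were called from simulated doublets among nearest neighbours, at a rate of 0.4% per 1000 barcodes, and kept. Interval coverage was tested on simulated library sums that held counting error only. They had no spread between cells, so this check does not bear on such spread. The files' build was not in hand as a genome, so promoter sequence came from the RefSeq table of GRCm38.p6, where 34 of the 42 contractile genes were matched by symbol. Computations used Python 3.11.15 with NumPy 2.4.6, SciPy 1.17.1, pandas 2.3.3 and scikit-learn 1.9.0, and R 4.3.3 with edgeR 4.0.16 for scaling factors only.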

Additional observations from a re-analysis of the deposited data

How the results depend on the processing

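Alternatives were TMM and median-of-ratios scaling, equal weight per cell, thinning to 2000 UMIs, a stricter cell filter, doublet removal, a marker minimum of 10 UMIs, further exclusion genes, subtraction of 5% free RNA and gene minimums of 10 and 200 UMIs. Leaving out the keratin-rich or the deepest cells, also combined with equal weight, thinning or a side, was chosen after seeing the data. No replicate could be left out with 1 library per group, and no paired analysis was possible because the groups had no replicates. The small number of Cont cells and the low depth of CIA cells limit precision. Below, log2 values stand for ratios, a sign change was counted where the new value was at least 0.1 in size, and the cause of each change was not tested unless the alternative measures fewer genes or cells.

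The mural share of CIA over Cont ranged from 2.57 to 3.58. Under the further exclusions the ratio of CIA+VFX to CIA was 0.875 and that to Cont 2.48.

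Counts past 2-fold fell with fewer UMIs and rose with a lower gene minimum. For CIA against Cont (335 higher, 229 lower) they were 123 and 44 after thinning, 182 and 98 under the further exclusions, 1174 and 1049 at a minimum of 10 UMIs, and 95 and 41 at 200. Thinned keratin-poor cells gave 110 and 41. Only the lower count moved past 1.5 times with a marker minimum of 10 (143) and without keratin-rich cells (122). For CIA+VFX against CIA (81 and 41) the counts were 195 and 98 with equal weight per cell, 31 and 16 after thinning, 659 and 488 at 10 UMIs and 8 and 5 at 200. Keratin-poor cells gave 163 and 90 with equal weight and 27 and 14 thinned. For CIA+VFX against Cont (401 and 255) they were 151 and 42 after thinning, 223 and 131 under the further exclusions, 1365 and 1046 at 10 UMIs and 122 and 35 at 200. Thinned keratin-poor cells gave 160 and 46, and without keratin-rich cells the lower count was 151.

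List medians for CIA over Cont kept their sign for basement membrane (0.30 to 1.33) and interstitial matrix (0.21 to 1.12) under every alternative run. The low ends were the keratin-poor contractile side (0.30 and 0.38), equal weight per keratin-poor cell (0.39 for basement membrane) and thinning (0.21 for matrix). Pericyte identity came to -0.03 on the keratin-poor contractile side. The contractile list, 0.22 over all cells, was -0.33 under the further exclusions, -0.15 without keratin-rich cells and -0.22 with equal weight as well. Vasomotor genes, 0.33 over all cells, were -0.38 on the pericyte side with or without keratin-rich cells, -0.14 without those cells and -0.13 when also thinned. Angiogenic factors, 0.27 over all cells, were -0.20 under the further exclusions, -0.13 without keratin-rich cells and -0.21 on the keratin-poor contractile side, and inflammatory genes, 0.21 over all cells, -0.16, -0.10 and -0.25 in that order and -0.19 thinned. G2/M genes turned from -0.33 to 0.29 in keratin-poor cells with equal weight, and immediate early genes from 0.30 to -0.11 on the pericyte side.

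Of the named genes, some had a ratio of CIA to Cont that changed sign. Abcc9 was -0.18 in thinned keratin-poor cells. Acta2, 0.33 over all cells, was -0.10 with equal weight, -0.42 under the further exclusions, -0.13 without keratin-rich cells and -0.27 with equal weight as well. Myl6, 0.22 over all cells, was -0.17, -0.33, -0.14 and -0.29 in the same order and -0.21 in thinned keratin-poor cells, and Myl9 was -0.33 under the further exclusions and -0.12 in keratin-poor cells with equal weight. Notch3, 0.22 over all cells, was -0.12 with a marker minimum of 10, -0.16 without keratin-rich cells, -0.30 when also thinned and -0.13 on the keratin-poor contractile side. Adra1a was 0.22 with equal weight and 0.11 thinned. Cxcl2, 0.21 over all cells, was -0.40 with equal weight and -0.33 thinned, and without keratin-rich cells -0.20, -0.55 and -0.53 in the order summed, equal weight and thinned. On the contractile side Cxcl2 was -0.63 and Cxcl1 -0.54, or -0.83 and -0.76 without keratin-rich cells. On the pericyte side Il6 was 2.52, Cdkn1a 1.20, Mylk 0.53, Gdf15 -0.32, Tagln -0.71 and Vcl -0.48, with or without keratin-rich cells.

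For CIA+VFX over CIA, Cxcl1 was 0.54 on the contractile side (0.60 keratin-poor), Il6 was -0.64 on the pericyte side, and Ppp2r2b was 0.19 under the further exclusions and 0.31 on the contractile side (0.37 keratin-poor).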
